A study of Mus musculus with 22 samples.

Results

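Disease-associated microglia genes were followed in the whole brains of 22 aged male mice: Apoe, Cst7, Itgax, Lpl, Spp1, Axl, Clec7a, Gpnmb, Cd9 and Csf1. They were taken by symbol from a table of read counts, where each symbol matched 1 row, giving 10 of 56748 listed genes. The mice (C57BL/6J, called C57/BL6 in the sample labels) belong to a model of Gulf War illness, in which young adults receive chemicals that deployed soldiers met. Exposed mice (GW) were injected from 10 weeks of age with 0.7 mg/kg pyridostigmine bromide, which inhibits acetylcholinesterase, plus 200 mg/kg permethrin, an insecticide, on each of 10 days, and control mice (Ctrl) with vehicle. All were kept until 17.5 months. Some exposed mice then had 30 mg/kg cannabidiol (CBD) on 28 days in a row and on every 2nd day for a further 2 weeks, and all other mice its vehicle (Veh). Lipopolysaccharide (LPS, a bacterial cell wall product that sets off systemic inflammation; 0.33 mg/kg) or PBS was injected 24 h before the brains were taken. The 6 groups were CtrlVeh (3 mice), CtrlVehLPS (3), GWVeh (4), GWVehLPS (4), GWCBD30 (4) and GWCBD30LPS (4). CBD in unexposed mice was not analysed here, so a CBD difference holds for exposed mice. Nothing in the labels says whether mice shared a litter or cage, and the p-values measure the spread between these mice.

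Microglia are the resident macrophages of the brain. Around amyloid plaques, dying neurons and damaged myelin, and with age, some of them lower the genes of the resting state and turn on lipid-handling, lysosomal and phagocytic genes. This programme depends in part on the receptor TREM2 and its adaptor TYROBP. The genes described here are landmarks of the programme, but several are also made elsewhere in brain: Apoe mostly by astrocytes, Cd9 by oligodendrocytes, Axl by cells of the vessel wall and astrocytes, Csf1 by astrocytes and neurons, Lpl and Spp1 by some neurons. In whole brain, Cst7, Itgax and Clec7a are therefore the members closest to a readout of myeloid cells. More cells of a type and more RNA per cell cannot be told apart in such samples.

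Promoter sequence was looked at first for motifs of factors that drive inflammatory and myeloid genes, since LPS acts through them. RefSeq (GRCm38.p6) windows, from 250 bases before to 50 bases after a start site, were at hand for 9 of the 10 genes (13 windows); Lpl was not matched. Motifs were searched on both strands: NF-kB (GGACTTTCC), AP-1 (TGANTCA), the PU.1 core (GAGGAAGT), the interferon response element (GAAANNGAA) and the E-box bound by MITF and TFE factors (CACGTG). None of these motifs holds another. Shown are the 250 bases upstream of a start site of Apoe, the member with the smallest p in the LPS comparison below, of Csf1, with the rarest motif, of Itgax, with AP-1, and of Spp1, with both a PU.1 and an interferon motif; all run 5′ to 3′ on the gene's strand, with matches in capitals. They lie at chr7:19699189-19699438 (minus strand, Apoe), chr3:107760470-107760719 (minus strand, Csf1), chr7:128129300-128129549 (plus strand, Itgax) and chr5:104434861-104435110 (plus strand, Spp1).
Apoe: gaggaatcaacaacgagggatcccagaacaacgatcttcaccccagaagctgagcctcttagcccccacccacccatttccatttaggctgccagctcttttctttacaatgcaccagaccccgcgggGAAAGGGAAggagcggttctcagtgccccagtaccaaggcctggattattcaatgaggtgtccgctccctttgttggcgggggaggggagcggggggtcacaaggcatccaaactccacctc
Csf1: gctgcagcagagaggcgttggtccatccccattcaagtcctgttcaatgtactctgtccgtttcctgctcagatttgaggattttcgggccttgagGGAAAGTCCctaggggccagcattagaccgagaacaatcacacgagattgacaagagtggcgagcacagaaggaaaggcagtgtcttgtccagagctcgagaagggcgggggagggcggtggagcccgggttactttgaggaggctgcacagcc
Itgax: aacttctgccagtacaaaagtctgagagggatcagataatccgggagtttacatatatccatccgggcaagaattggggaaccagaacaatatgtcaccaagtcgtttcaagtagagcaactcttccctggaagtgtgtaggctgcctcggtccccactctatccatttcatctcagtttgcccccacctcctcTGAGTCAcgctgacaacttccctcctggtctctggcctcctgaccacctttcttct
Spp1: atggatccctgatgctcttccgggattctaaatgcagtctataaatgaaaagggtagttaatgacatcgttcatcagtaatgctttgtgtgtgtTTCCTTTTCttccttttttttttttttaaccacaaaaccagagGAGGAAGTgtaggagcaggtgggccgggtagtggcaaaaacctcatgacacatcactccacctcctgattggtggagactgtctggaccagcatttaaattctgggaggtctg
The capitals in Apoe are an interferon response match beginning 122 bases upstream, a motif present in 8.56% of all 32851 windows of this length. In Csf1 they are an NF-kB match read on the opposite strand, 154 bases upstream, and this motif was in 0.344% of windows. Itgax holds an AP-1 match at 56 bases upstream, as 7.81% of windows do. Spp1 has an interferon response match on the opposite strand (first capitals, 156 bases upstream) and a PU.1 core (second capitals, 113 bases upstream), the latter found in 3.2% of windows. An interferon response match was also found in Cd9, and AP-1 matches in Cst7 and Gpnmb. The E-box, present in 7.15% of windows, was in none of the 13. A match describes the letters of the window; no binding was measured here.

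Libraries held 17.2 to 31.2 M counts (median 21.6 M). Levels are given as CPM (counts in every M counts) with TMM-scaled library sizes. Markers of neurons, astrocytes, oligodendrocytes and microglia were present in every library, and some libraries stood apart. CtrlVehLPS replicate 1 had a summed level of 6 cerebellar markers of 132.4 CPM against 809.4 and 807.1 CPM in the other CtrlVehLPS libraries, so results of its group are also given without it. Summed over 6 olfactory bulb markers, levels were 20.5 to 36.3 CPM in the CtrlVehLPS libraries and 25 CPM in GWVehLPS replicate 3, against 7.17 to 11 CPM in libraries without LPS. Red blood cell markers (5 genes) summed to 761.5 CPM in GWVeh replicate 1 and to at most 355.2 CPM elsewhere. The part of red blood cells in the members' values was not tested. With bulb and cerebellar scores as covariates 0 members were called in any comparison. It was also 0 without these scores, so this count cannot show the part of bulb or cerebellum. Summed over 6 microglia markers (among them Tmem119, P2ry12, Cx3cr1, Siglech and Fcrls), levels were 115.2 to 136.8 CPM in the 11 libraries without LPS and 142.2 to 218.3 CPM in the 11 with LPS.

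The genes spanned a wide range of abundance. Per kilobase of exon, averaged over the 22 libraries, the levels were 517.6 CPM for Apoe, 21 for Spp1, 11.6 for Cd9, 10.4 for Axl, 5.32 for Csf1, 1.36 for Lpl, 0.734 for Gpnmb, 0.66 for Cst7, 0.533 for Clec7a and 0.181 for Itgax. Over single libraries the ranges of Cd9 and Axl overlapped, as did those of Lpl, Gpnmb, Cst7 and Clec7a with each other, so these neighbours in the order are not separated. Itgax overlapped Cst7 and Clec7a and lay below Gpnmb in every library. The 3 myeloid-restricted genes rested on few reads: 1 to 46 counts a library for Cst7, 5 to 49 for Itgax and 14 to 83 for Clec7a. Apoe had 16229 to 38058.

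**Figure D1:**
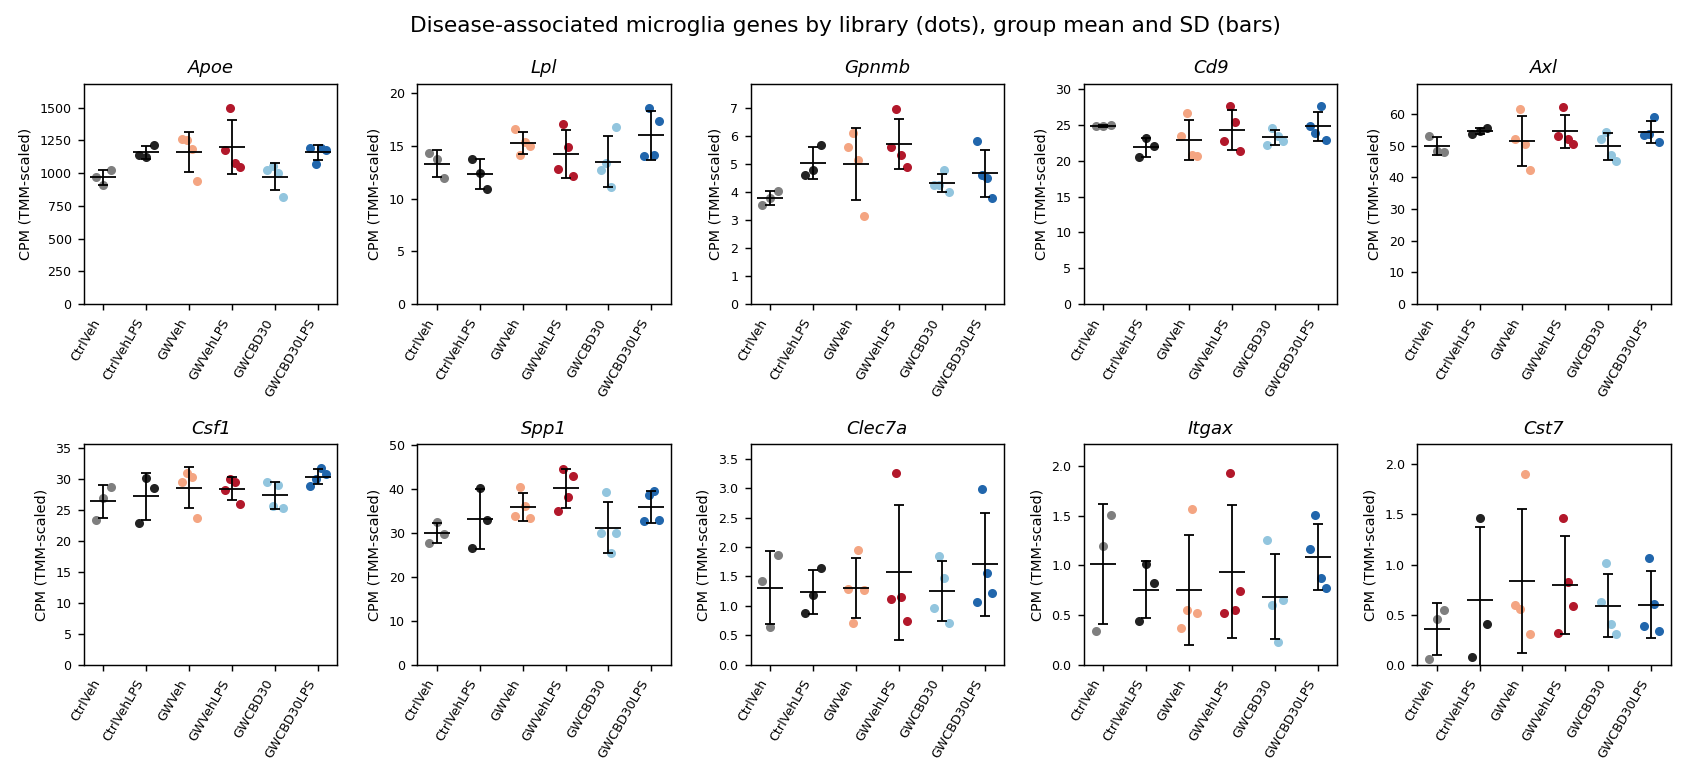
Level of each of the 10 genes in CPM (vertical axes, from 0) in the 6 groups (horizontal axes); dots are libraries, the horizontal bar is the group mean and the whiskers are 1 SD. Groups overlap for most genes, while Cst7, Itgax and Clec7a lie at or below 3.26 CPM and vary several-fold between libraries of 1 group.

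Across all 10 comparisons none of the 10 genes passed an adjusted p of 0.05. The comparisons were LPS against PBS in each of the 3 arms and averaged over them, exposure with and without LPS, CBD with and without LPS, and the 2 interactions with LPS. Of 100 tests by edgeR's quasi-likelihood method, with Benjamini-Hochberg adjustment over the 20026 genes tested, 0 were called and 10 had an unadjusted p under 0.05. DESeq2 called 1, Apoe in the averaged LPS response. All 10 members were abundant enough to be tested by edgeR. DESeq2 gave no adjusted p for Cst7, Itgax, Lpl, Clec7a and Gpnmb in exposure without LPS. In the exposure by LPS interaction it gave one for Apoe alone, and some scarce members lacked one in other comparisons. Such cases are counted as not called.

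How large a difference could have gone unseen depended on the gene. The 95% interval of the fold change lay within 1.5-fold of no change in 10 of 10 comparisons for Apoe, Spp1, Axl, Cd9 and Csf1, in 9 for Lpl and in 4 for Gpnmb, and within 2-fold in all 10 for these 7 genes. For Cst7, Itgax and Clec7a it lay within 1.5-fold in 0 comparisons, and within 2-fold in 0, 1 and 3. Changes of 2-fold in these 3 genes were thus mostly not detectable with these libraries. Their biological coefficients of variation were 0.604, 0.445 and 0.387, against 0.084 to 0.149 for the other 7 genes.

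**Figure D2:**
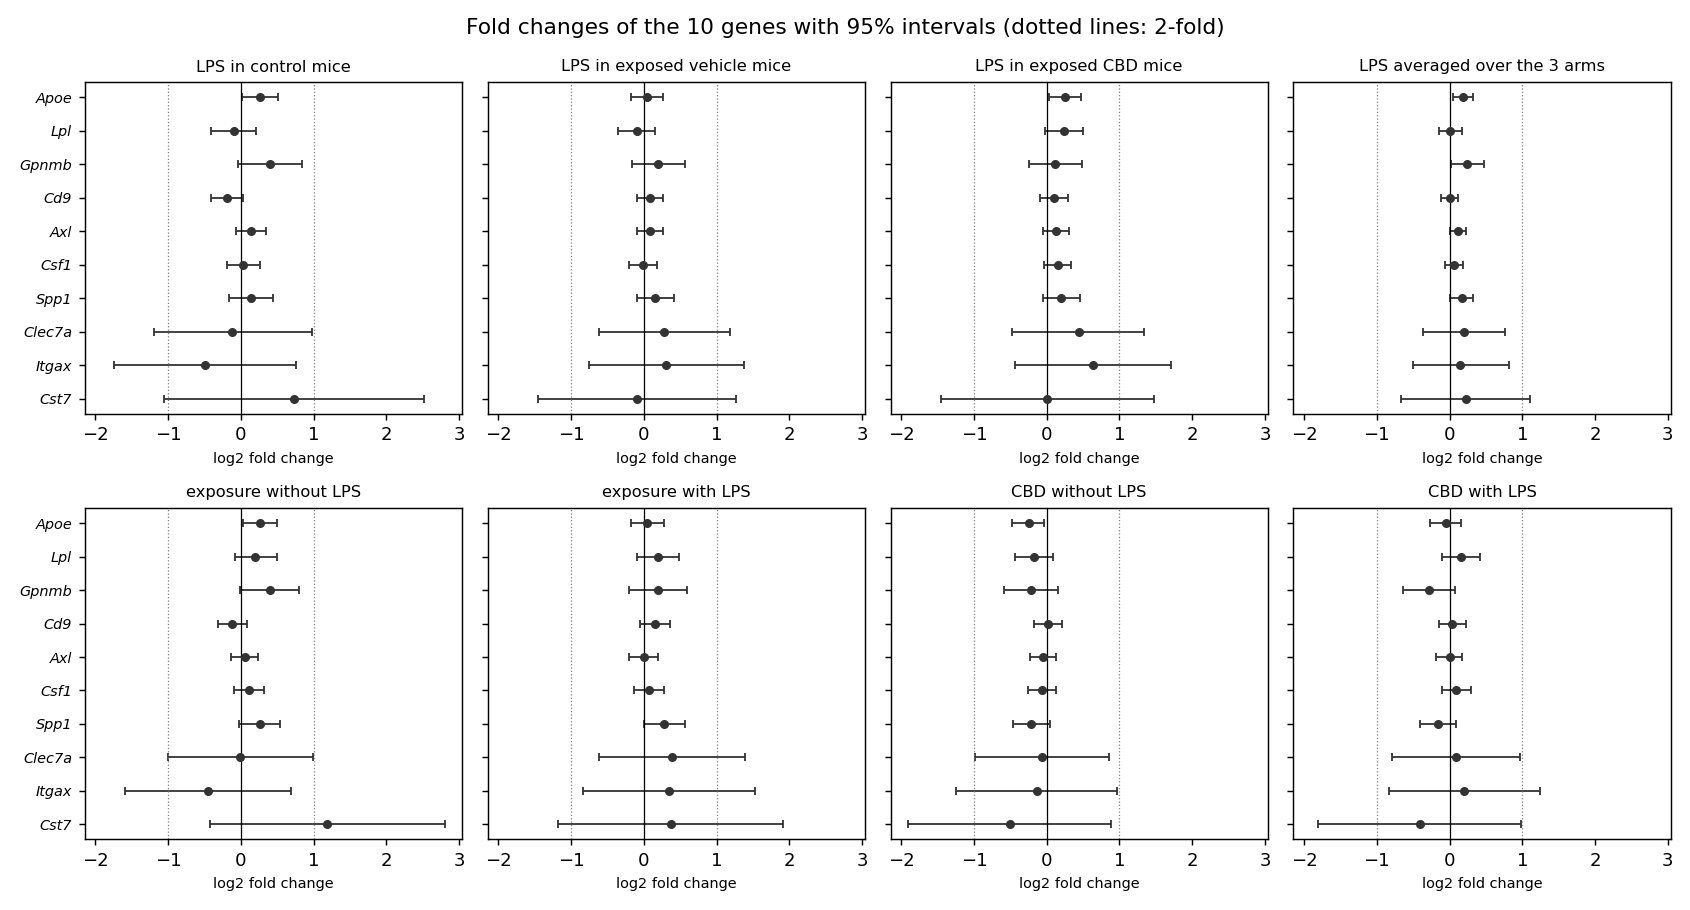
Log2 fold changes (horizontal axes) of the 10 genes (vertical axis) in 8 comparisons; points are edgeR estimates, whiskers are 95% intervals, and dotted lines mark 2-fold. The 7 more abundant genes have intervals inside the dotted lines in every panel, whereas those of Cst7, Itgax and Clec7a reach past them in most.

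The lipid genes are Apoe and Lpl. Apoe (7:19696109-19699188, minus strand, GRCm38) encodes apolipoprotein E, the main carrier of cholesterol and phospholipid between brain cells. Its level in CtrlVeh was 966.9, 909.1 and 1025.3 CPM, and in CtrlVehLPS 1142.4, 1120.8 and 1212.7 CPM. All LPS libraries of the control arm were above all those without it, as in 9.2% of all genes tested. GWVeh had 1260.4, 1256.9, 1182.1 and 939.5 CPM and GWVehLPS 1179.2, 1497.1, 1077.6 and 1045.4 CPM, groups that overlapped. With CBD the levels were 1020.9, 1055.7, 999.4 and 820.7 CPM without LPS and 1194.2, 1069.6, 1194.9 and 1173.2 CPM with it, again without overlap. In that arm 3.39% of all genes were higher without overlap.

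Lpl (8:68880491-68907448, plus strand) encodes lipoprotein lipase, which releases fatty acids from lipoproteins. It was at 13.3 ± 1.24 CPM (SD, n = 3) in CtrlVeh, 12.3 ± 1.4 (n = 3) in CtrlVehLPS, 15.3 ± 1.04 (n = 4) in GWVeh, 14.2 ± 2.24 (n = 4) in GWVehLPS, 13.5 ± 2.42 (n = 4) in GWCBD30 and 16 ± 2.31 (n = 4) in GWCBD30LPS. Every LPS group of Lpl overlapped its PBS group. Unlike Apoe, its mean was lower with LPS than without in both vehicle arms.

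The receptors are Axl, Clec7a and Itgax. Axl (7:25757273-25788705, minus strand) is a tyrosine kinase that takes up dying cells through its ligand GAS6. It was at 53.1, 48.2 and 48.1 CPM in CtrlVeh and 53.7, 54.8 and 55.7 CPM in CtrlVehLPS, at 42.3 to 61.5 CPM in GWVeh and 50.5 to 62.3 in GWVehLPS, and at 45.3 to 54.5 CPM in GWCBD30 and 51.2 to 59.2 in GWCBD30LPS. In the control arm its groups just failed to overlap, as in 9.2% of all genes in that direction, and in the exposed arms they overlapped. Clec7a (6:129461591-129472779, minus strand) encodes dectin-1, a receptor for fungal glucans, and is classed as a polymorphic pseudogene in the GENCODE M21 annotation. Its group means ran from 1.23 ± 0.378 CPM (SD, n = 3) in CtrlVehLPS to 1.71 ± 0.871 (n = 4) in GWCBD30LPS, and single libraries from 0.645 to 3.26 CPM.

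Itgax (7:128129547-128150657, plus strand) encodes CD11c, an integrin chain used to mark dendritic cells and activated microglia. Itgax was at 0.341, 1.2 and 1.51 CPM in CtrlVeh and 0.443, 1.01 and 0.819 CPM in CtrlVehLPS, and at 0.367, 0.552, 1.57 and 0.524 CPM in GWVeh and 0.524, 1.93, 0.551 and 0.746 CPM in GWVehLPS. With CBD it was at 1.26, 0.6, 0.229 and 0.657 CPM without LPS and 1.17, 1.51, 0.878 and 0.777 CPM with it. Within every group except GWCBD30LPS the highest library was at least 2 times the lowest, and no comparison separated the groups.

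Of the membrane glycoproteins, Cd9 (6:125460266-125494791, minus strand) is a tetraspanin, a scaffold that gathers other membrane proteins. It was very even in CtrlVeh, at 24.8, 24.8 and 25.0 CPM, and lower in CtrlVehLPS, at 20.5, 23.2 and 22 CPM. These groups did not overlap, as in 8.13% of all genes in that direction. Cd9 ran from 20.7 to 26.7 CPM in GWVeh, 21.4 to 27.6 in GWVehLPS, 22.2 to 24.6 in GWCBD30 and 22.9 to 27.6 in GWCBD30LPS. GWCBD30 lay below all CtrlVeh libraries, and the other 3 groups spanned them. GWCBD30 and CtrlVeh were not compared here, and no share of all genes was counted for that pair. The annotated exons of Cd9 overlap those of Gm26728 on the opposite strand, and the strand setting of the counting is not given in the sources used here, so reads of that gene may be included. Gpnmb (6:49036546-49070929, plus strand) is a lysosomal and surface glycoprotein of lipid-laden macrophages. In CtrlVeh it was at 3.53, 3.78 and 4.03 CPM and in CtrlVehLPS at 4.62, 4.78 and 5.67 CPM, without overlap, as in 9.2% of all genes in that direction. GWVeh held 5.6, 6.12, 5.13 and 3.15 CPM, GWVehLPS 5.62, 6.96, 5.33 and 4.9 CPM, GWCBD30 4.25, 4.25, 4.77 and 3.99 CPM and GWCBD30LPS 5.81, 4.59, 4.5 and 3.78 CPM. In GWVeh 3 of 4 libraries were above all CtrlVeh libraries and replicate 4 was below them.

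The secreted proteins are Spp1, Csf1 and Cst7. Spp1 (5:104435118-104441050, plus strand) encodes osteopontin, a matrix protein that signals through integrins and CD44; its exons overlap those of the gene model Gm42793 on the same strand. Spp1 was at 27.7, 32.4 and 29.8 CPM in CtrlVeh, 26.5, 40.1 and 32.9 CPM in CtrlVehLPS, 33.9, 40.4, 36.0 and 33.4 CPM in GWVeh and 35.0, 44.6, 38.1 and 43.0 CPM in GWVehLPS. With CBD, Spp1 was at 29.9, 39.3, 25.5 and 30.0 CPM without LPS and 32.6, 38.5, 39.6 and 32.9 CPM with it. The lowest GWVeh library was above the highest CtrlVeh library, as in 4.8% of all genes, while each LPS group overlapped its PBS group. The lowest libraries of GWVehLPS and GWCBD30LPS (32.6 CPM) were also above that library (32.4 CPM). Those pairs of groups were not compared here, and no share of all genes was counted for them. Csf1 (3:107741048-107760469, minus strand), a growth factor that aids the survival of microglia, had group means from 26.3 ± 2.73 CPM (SD, n = 3) in CtrlVeh to 30.3 ± 1.22 (n = 4) in GWCBD30LPS.

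Cst7 (2:150570415-150578944, plus strand) encodes cystatin F, an inhibitor of lysosomal cathepsins. It had 1 count in CtrlVeh replicate 1 (0.0569 CPM) and was at 0.0739 CPM in CtrlVehLPS replicate 1, both under a floor of 3 counts. The highest values were 1.9 CPM in GWVeh replicate 3 and 1.46 CPM in both CtrlVehLPS replicate 2 and GWVehLPS replicate 2. Group means of Cst7 lay between 0.353 ± 0.26 CPM (SD, n = 3) in CtrlVeh and 0.84 ± 0.721 (n = 4) in GWVeh. Libraries of these groups overlapped, at 0.0569 to 0.543 CPM and 0.306 to 1.9 CPM.

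No member was called with LPS. Averaged over the 3 arms, where 3.52% of genes tested were called (498 higher and 207 lower), 0 of the 10 members were. Apoe differed by 0.19 ± 0.06 (log2 fold change ± SE; 1.14-fold, adjusted p = 0.103 by edgeR) and Gpnmb by 0.24 ± 0.11 (adjusted p = 0.221). Of 6 astrocyte markers 3 rose in the same comparison, 0 fell and the median was 0.14; their part in the Apoe value was not tested. Axl and Spp1, added here because their unadjusted p was also under 0.05, differed by 0.12 ± 0.05 and 0.17 ± 0.07. Csf1 was at 0.06 ± 0.06, Lpl at 0.01 ± 0.08 and Cd9 at 0.00 ± 0.05, and the 3 scarce genes had standard errors of 0.26 to 0.42. The median over the 10 was 0.16, against -0.01 over all genes tested, and 4 of 10 had an unadjusted p under 0.05, against 17.8% of all genes. The call on Apoe changed with the method: adjusted p was 0.0325 with DESeq2 and 0.0305 with the replicate number as a block. For Spp1 it was 0.0305 with no filter on low counts. Without CtrlVehLPS replicate 1 the values were 0.19 for Apoe (adjusted p = 0.13), 0.26 for Gpnmb, 0.12 for Axl and 0.22 for Spp1 (adjusted p = 0.061), and 0 members were called.

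Single arms gave no call on a member either. In control mice, where 0.494% of genes were called, 0 of the 10 members were: Apoe differed by 0.26 ± 0.12 (edgeR adjusted p = 0.373) and Gpnmb by 0.40 ± 0.21 (adjusted p = 0.428), and without CtrlVehLPS replicate 1 by 0.27 and 0.46. Apoe, Axl and Gpnmb were higher without overlap and Cd9 lower without overlap, a pattern found in 9.2% and 8.13% of all genes; Apoe, 1 of the 10, had an unadjusted p under 0.05 by both edgeR and DESeq2, against 12.2% of all genes by edgeR. In exposed vehicle mice 0.939% of genes were called and 0 members, the smallest p belonging to Spp1 (0.16 ± 0.12, adjusted p = 0.714) and Gpnmb (0.20 ± 0.17, adjusted p = 0.764), with Apoe at 0.05 ± 0.10; 0 members had an unadjusted p under 0.05 by edgeR or DESeq2, against 10.4% of all genes by edgeR. In exposed CBD mice 0.00499% of genes, a single gene, were called and 0 members. There Apoe differed by 0.25 ± 0.10 (adjusted p = 0.536; unadjusted p under 0.05 by both tools, against 8.22% of all genes) and Lpl by 0.24 ± 0.12 (adjusted p = 0.620), and Apoe was higher without overlap, as were 3.39% of genes.

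Resting microglia genes were called in the averaged LPS comparison, where the members were not. Of 14 homeostatic genes, all tested, 8 rose with LPS in control mice and 10 in exposed vehicle mice, where 0.494% and 0.939% of all genes were called. In exposed CBD mice 0 were called, where 1 of all 20026 genes was. Medians in these arms were 0.56, 0.57 and 0.22. In exposed CBD mice all 14 were positive, 5 with an unadjusted p under 0.05 by edgeR, against 8.22% of all genes. Of the 14, 1 passed in the CBD by LPS interaction. In the averaged comparison, where 3.52% of all genes were called, 11 rose with LPS, 0 fell and 3 did not pass, with a median of 0.47. Olfml3, a secreted protein made in brain by microglia, rose by 0.74 ± 0.07 (edgeR adjusted p = 1.2e-08), Tmem119, a microglial surface marker, by 0.46 ± 0.05 (2.77e-07), and Selplg, a selectin ligand, by 0.49 ± 0.05 (5.23e-07). Among 25 other genes of the activated state, 24 were tested, and 0 were called in exposed CBD mice alone. In the averaged comparison 7 rose and 0 fell (median 0.20). Ctss (cathepsin S) rose by 0.64 ± 0.06 (5e-09), Tyrobp (the TREM2 adaptor) by 0.52 ± 0.08 (1.44e-04), Ctsz (cathepsin Z) by 0.29 ± 0.05 (3.45e-04) and B2m (the light chain of MHC class I) by 0.26 ± 0.05 (7.52e-04). Trem2 itself was at 0.22 ± 0.07 (adjusted p = 0.0972). Summed over the 14 homeostatic genes, mean levels were 220.3 CPM in CtrlVeh and 316.5 CPM in CtrlVehLPS. Ratios to this sum move with it and do not count cells. The summed level of Cst7, Itgax and Clec7a was 1.23% ± 0.554 (SD, n = 3) of this sum in CtrlVeh and 0.841% ± 0.376 (n = 3) in CtrlVehLPS. It was 1.33% ± 0.716 in GWVeh and 1% ± 0.587 in GWVehLPS, and 1.13% ± 0.391 in GWCBD30 and 1.28% ± 0.502 in GWCBD30LPS (n = 4 each). These ratios overlapped between all groups. Monocyte and neutrophil markers (8 genes) summed to at most 18.9 CPM in any library and were lower on average with LPS than without in every arm; their part in the members' values was not tested.

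Receptors and other partners of the members were compared with the members themselves. Of 30 partners 29 were tested, and 0 were called for LPS in exposed CBD mice alone, where 1 of all 20026 genes was. In the averaged LPS comparison, where 3.52% of all genes were called, 7 rose and 0 fell. Csf1r, the receptor of CSF1, rose by 0.59 ± 0.05 (edgeR adjusted p = 5e-09), Itgb2, the beta chain that pairs with CD11c, by 0.75 ± 0.10 (7.65e-06), Mertk, a kinase of the AXL family, by 0.36 ± 0.06 (1.06e-04) and Itgb5, an osteopontin-binding integrin chain, by 0.34 ± 0.05 (2.57e-04). Csf1r went from 54.6 ± 4.65 CPM (SD, n = 3) in CtrlVeh to 89.3 ± 10.9 (n = 3) in CtrlVehLPS, from 57.2 ± 3.58 (n = 4) in GWVeh to 92 ± 8.64 (n = 4) in GWVehLPS and from 57.2 ± 6.99 (n = 4) in GWCBD30 to 73.8 ± 5.08 (n = 4) in GWCBD30LPS. Its ligand gene Csf1 had no such step.

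The difference in LPS response between a partner and its member was then tested on log2 CPM (prior count 2), by a two-sided exact permutation of the LPS labels within each arm over 98000 arrangements, adjusted over the 29 pairs; this test was added after the fits were seen. The response of Csf1r exceeded that of Csf1 by 0.52 (adjusted p = 0.00178), with 0.67 in control, 0.69 in exposed vehicle and 0.22 in exposed CBD mice. Cd81, a tetraspanin that pairs with CD9, exceeded Cd9 by 0.18 (adjusted p = 0.0339). The lipoprotein receptors Vldlr and Lrp1 went the other way: their responses differed from that of Apoe by -0.32 and -0.23 (both adjusted p = 0.0465). Cd44, an osteopontin receptor, differed from Spp1 by -0.39 (adjusted p = 0.046). Thus 6 of 29 pairs passed, 2 with the partner higher and 4 with the member higher; pairs with Apoe share the Apoe values. Without CtrlVehLPS replicate 1 the pairs of Vldlr and Lrp1 with Apoe, at -0.29 and -0.20 (both adjusted p = 0.0709), and of Cd44 with Spp1, at -0.40 (0.0682), no longer passed. Mertk against Axl (0.24, adjusted p = 0.0756), Itgb2 against Itgax (0.49, adjusted p = 0.278) and the cathepsin activator Ctsc against Cst7 (0.36, adjusted p = 0.667) did not pass.

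**Figure D3:**
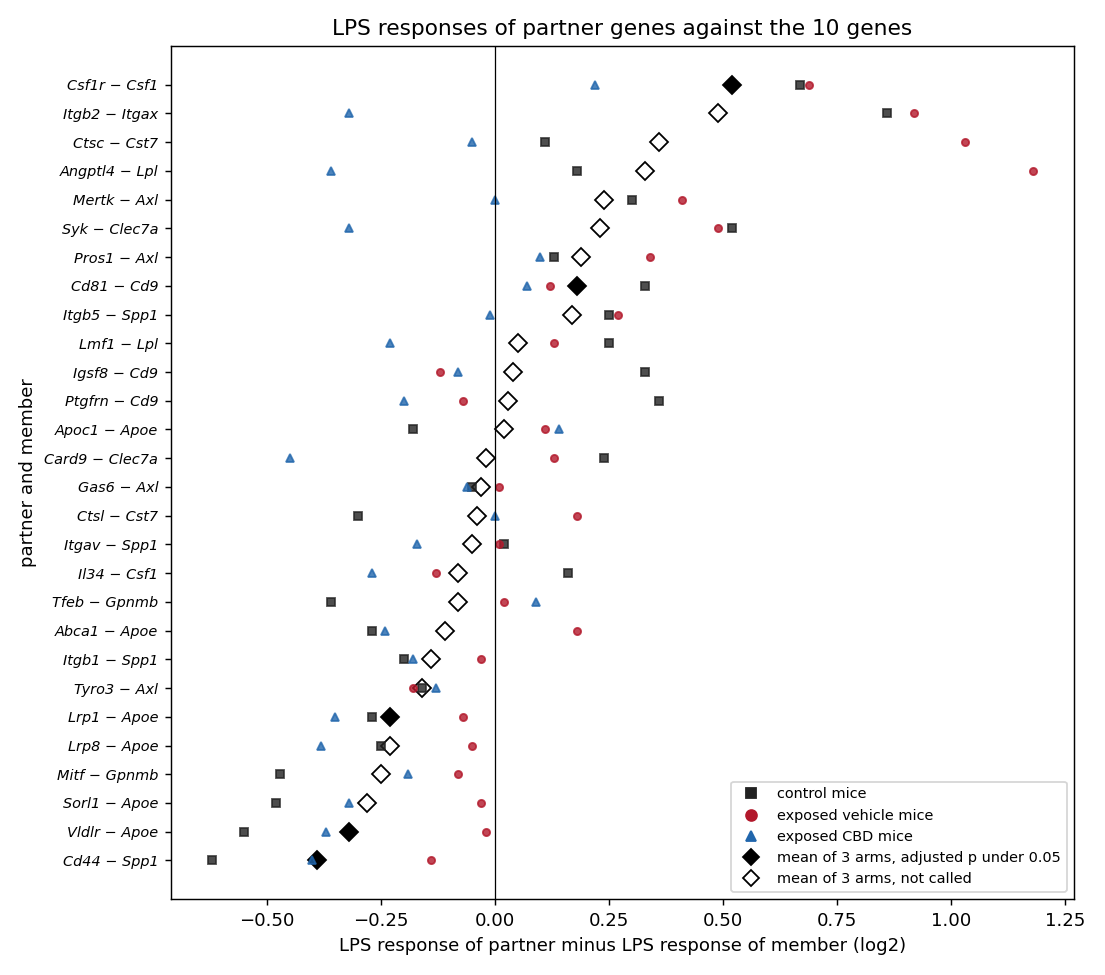
LPS response of a partner gene minus that of the member it acts with (horizontal axis, log2) for 28 of the 29 pairs (vertical axis); small symbols are the 3 arms and diamonds their mean, filled where the adjusted p was under 0.05. Csf1r minus Csf1 stands at 0.52 with all 3 arms to the right of 0, and Cd44 minus Spp1 at -0.39 with all 3 to the left.

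No member was called for the chemical exposure. Without LPS, where 0% of genes were called, 0 of the 10 members were; Apoe differed by 0.26 ± 0.11 (edgeR adjusted p = 0.521) and Gpnmb by 0.40 ± 0.19 (adjusted p = 0.566). Without GWVeh replicate 4, 12 genes were called, none of them a member, with Apoe at 0.35 (adjusted p = 0.154) and Gpnmb at 0.57 (adjusted p = 0.182). Each other library left out gave smaller values for both. Apoe was as low as 0.22 (without CtrlVeh replicate 2, adjusted p = 0.914) and Gpnmb 0.29 (without GWVeh replicate 2, adjusted p = 0.888). These 2 had in the full fit an unadjusted p under 0.05 by edgeR and 1 member did by DESeq2, against 8.8% of all genes by edgeR. Spp1 (1.2-fold, adjusted p = 0.58) had groups without overlap, which 4.8% of all genes had in that direction. With LPS, where 0.00499% of genes were called, 0 members were; Spp1 differed by 0.28 ± 0.13 (adjusted p = 0.636, unadjusted p under 0.05 by both tools, against 7.73% of genes) and Cd9 by 0.15 ± 0.10 (adjusted p = 0.754). Without CtrlVehLPS replicate 1, Spp1 was at 0.14 and Cd9 at 0.10. The single gene called with LPS was lost without CtrlVehLPS replicate 1 or 2 or GWVehLPS replicate 2 or 3, and 24 genes were called without CtrlVehLPS replicate 3, none of them a member. In the exposure by LPS interaction 0% of genes and 0 members were called, and 0 members had an unadjusted p under 0.05 by edgeR or DESeq2, against 8.43% of genes. Cd9 was at 0.27 ± 0.14 (adjusted p = 0.614) and Apoe at -0.21 ± 0.16 (adjusted p = 0.756) there, or 0.22 and -0.22 without CtrlVehLPS replicate 1.

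In exposed mice CBD was set against vehicle. Without LPS, 0% of genes and 0 of the 10 members were called. Apoe differed by -0.25 ± 0.10 (edgeR adjusted p = 0.752, unadjusted p under 0.05 by edgeR and DESeq2, against 6.43% of genes) and Spp1 by -0.21 ± 0.12 (adjusted p = 0.77). Of the 10 log2 fold changes 1 was positive, against 10037 of 20026 over all genes tested. All 6 oligodendrocyte markers were also lower here, none called (median -0.23), with summed means of 5737.1 CPM in GWVeh and 4804.5 CPM in GWCBD30; their part was not tested. This comparison shares its GWVeh libraries with that of exposure, so the opposite signs of Apoe and of other members in these comparisons are not independent. With LPS, where 0.24% of genes were called, 0 members were and 0 had an unadjusted p under 0.05 by edgeR or DESeq2, against 7.1% of genes: Gpnmb differed by -0.28 ± 0.17 (adjusted p = 0.802) and Spp1 by -0.16 ± 0.12 (adjusted p = 0.868), with a median of 0.02 over the 10. In the CBD by LPS interaction, where 0.0449% of genes were called, 0 members were, and 0 had an unadjusted p under 0.05 by either tool, against 5.69% of genes. Lpl was at 0.34 ± 0.17 (adjusted p = 0.883) and Apoe at 0.20 ± 0.14 (adjusted p = 0.925). Without GWVehLPS replicate 2 Apoe was at 0.33 (adjusted p = 0.383), but without GWCBD30 replicate 4 at 0.13 (adjusted p = 0.951). Lpl was at 0.26 without GWCBD30 replicate 3 (adjusted p = 0.942). With the homeostatic microglia score as a covariate Lpl was at 0.71 (adjusted p = 0.271) and Apoe at 0.37 (adjusted p = 0.557). The genes of that score differed between these groups themselves, with mean sums of 214.7 CPM in GWVeh, 320.7 in GWVehLPS, 225.2 in GWCBD30 and 261.6 in GWCBD30LPS.

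Some related genes fell with CBD under LPS, where 0.24% of all genes and no member were called. Of the 14 homeostatic genes 3 fell: Olfml3 by 0.81 ± 0.11 on the log2 scale (edgeR adjusted p = 1.21e-04), Fcrls by 0.72 ± 0.14 (0.0083) and Tmem119 by 0.37 ± 0.08 (0.0376). Of 24 other activated-state genes 2 fell, Ctss by 0.46 ± 0.09 (0.0125) and B2m by 0.36 ± 0.08 (0.0284), and of 29 partners 1, Angptl4, an inhibitor of lipoprotein lipase, by 1.24 ± 0.23 (0.00525). Of 5 endothelial markers 3 also fell here (Ly6c1, Pecam1 and Cldn5; median of the 5 -0.59), and the summed level of the 5 was 118.2 to 134.8 CPM in GWVehLPS and 91.1 to 96 CPM in GWCBD30LPS; their part in these values was not tested. Angptl4 was at 3.47 ± 0.948 CPM (SD, n = 4) in GWVehLPS and 1.47 ± 0.417 (n = 4) in GWCBD30LPS, while Lpl was at 14.2 and 16 CPM. The call on Angptl4 was lost without GWVehLPS replicate 4 (adjusted p = 0.051), that on Fcrls without GWCBD30LPS replicate 1 (0.0839) or 4 (0.0615), and those on Ctss and B2m without GWVehLPS replicate 1 (0.0666 and 0.0924) or 2 (0.0559 and 0.115) or GWCBD30LPS replicate 1 (0.0896 and 0.141) or 4 (0.113 and 0.209). For Tmem119 it was lost without any of GWVehLPS replicates 1 and 3 (0.185 and 0.161) and GWCBD30LPS replicates 1, 2 and 4 (0.146, 0.0787 and 0.226), and in a fit to these groups alone (0.0836); Olfml3 was called without each library in turn.

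Some libraries were high or low within their group for most members. GWVehLPS replicate 2 was the highest of its group for 10 of 10 members, CtrlVehLPS replicate 1 the lowest of its group for 8, and GWVeh replicate 4 and GWVehLPS replicate 4 the lowest for 7 each. How often these libraries take such places over all genes was not counted. Members that vary together are also not separate observations. Beside these places, GWVehLPS replicate 2 had 5.04% mitochondrial counts and a summed level of 6 oligodendrocyte markers of 7092.3 CPM, against 4904.5 to 5807.5 CPM in the other 3 libraries. Its microglia markers stood at 218.3 CPM against 158.7 to 193.6, and 6 fibroblast markers at 84.1 CPM against 54.4 to 64.9. The part of tissue make-up in these places was not tested. Over the 22 libraries Apoe went with Axl and with Gpnmb (Pearson r = 0.79 for both, Spearman rho = 0.70 and 0.78), Axl with Gpnmb (0.68), Cst7 with Spp1 (0.70) and Cst7 with Itgax (0.60), while Apoe and Lpl had r = 0.12. These correlations describe libraries that share group, depth and tissue make-up, and no test was made.

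**Figure D4:**
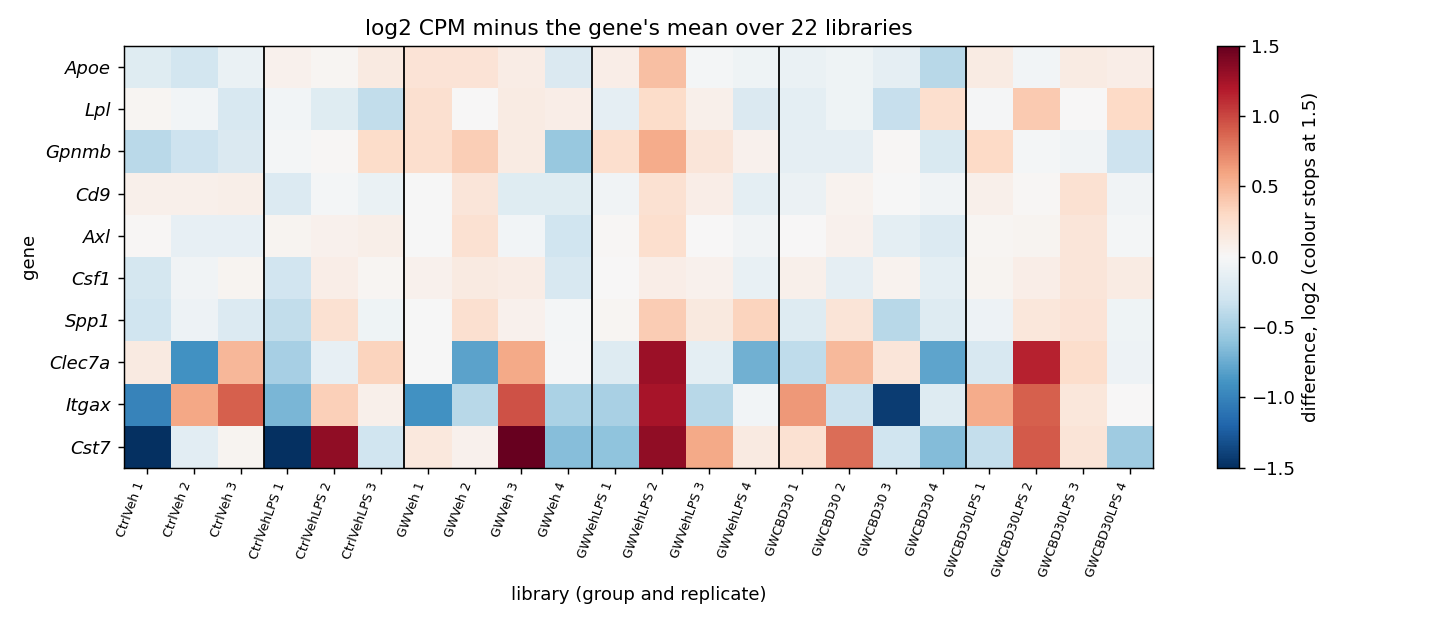
Log2 CPM of each gene (rows) in each library (columns, by group and replicate) minus the gene's mean over the 22 libraries; red is above and blue below the mean, and vertical lines divide the groups. The column of GWVehLPS replicate 2 is red in all 10 rows, and the largest differences are in the rows of Clec7a, Itgax and Cst7.

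By the same measure, among genes with a mean log2 CPM of at least 1, the gene most like Apoe was Gnai2 (r = 0.96, rho = 0.95), then Psap and Arhgdia (r = 0.95 each). Psap encodes prosaposin, a lysosomal lipid-handling protein secreted in brain, and Gnai2 an inhibitory G protein subunit. The closest gene was Pgm1 for Axl (r = 0.85), Fxyd1 for Gpnmb (0.86), Cd59a for Spp1 (0.84), Gab2 for Csf1 (0.81), Apoo for Lpl (0.79), Serpinb1b for Cd9 (0.74), Aard for Itgax (0.71) and Slc38a3 for Clec7a (0.70). For Cst7 it was 2610507B11Rik (0.77). No member had another member among its 3 closest genes.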

How the data were processed

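RNA from 22 whole brains was sequenced. Stranded poly(A) libraries were made from RNA of integrity number 8.5 or more and read as 150 bp pairs, per the labels' protocols; the build was GRCm38/mm10, per the submitters' processing notes. Aligner, counter, its strand setting and annotation: not given in the sources used here. The deposited values are raw whole-number read counts per gene. Counts were fitted with edgeR 4.0.16 (R 4.3.3): filterByExpr (20026 genes), TMM scaling, and a robust quasi-likelihood fit of 6 group means to 22 libraries, on 16 residual degrees of freedom (common biological coefficient of variation 0.103). A set of 10 contrasts was tested two-sided with Benjamini-Hochberg adjustment, threshold 0.05; the averaged LPS response is the mean of the 3 arms' log2 fold changes. An SE is the log2 fold change divided by the square root of F, and 95% intervals use t on 16 degrees of freedom. The scripts were tested on simulated counts. A floor of 3 counts was 0.0974 to 0.175 CPM; it covers counting error alone. Coordinates and exon lengths come from GENCODE M21 (GRCm38), promoters from RefSeq GRCm38.p6.

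The genes and all lists were chosen with earlier results of these data known. Members past the threshold, or else the 2 with the smallest p, were given with fold change, SE and adjusted p, along with up to 4 called genes of each related list with the smallest p and the 3 genes with the highest Pearson r to each member; 1 related gene and 1 partner pair that these rules cover are not reported here. Alternatives were RLE scaling, no filter, DESeq2 1.42.0, the contrast's groups alone, a replicate block, bulb and cerebellar scores or a homeostatic microglia score as covariates, and leaving out each library. Same-numbered libraries were correlated in their deviations at r = -0.17 to 0.30, so the numbers were not taken as pairs.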

Additional observations from a re-analysis of the deposited data

Results flagged for a closer look

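In 3 of 40 sets of 4 libraries (10 genes in 4 groups) 1 library lay far from the other 3; chance gives about 1 in 20. Itgax stood at 1.57 CPM in GWVeh replicate 3 and at 1.93 CPM in GWVehLPS replicate 2. Clec7a stood at 3.26 CPM in GWVehLPS replicate 2. Each was the highest value of its group. Olfml3, a homeostatic microglia gene, differed between arms in its LPS response: the CBD by LPS interaction was -0.85 (log2, edgeR adjusted p = 0.0293). It was at 14.2 ± 1.93 CPM (SD, n = 4) in GWVeh, 28.2 ± 4.03 (n = 4) in GWVehLPS, 14.6 ± 0.867 (n = 4) in GWCBD30 and 16.1 ± 2.2 (n = 4) in GWCBD30LPS. This call was lost without GWVeh replicate 2 (adjusted p = 0.052) or 4 (0.0744), GWVehLPS replicate 1 (0.0814) or 3 (0.0679), GWCBD30 replicate 1 (0.134) or 2 (0.0623), or GWCBD30LPS replicate 4 (0.13).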

How the results depend on the processing

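The count of members called was 0 under every alternative in 9 of the 10 comparisons, where members without a DESeq2 adjusted p count as not called. In the averaged LPS comparison it was 1 with no filter on low counts (Spp1), 1 with the replicate block (Apoe) and 1 with DESeq2 (Apoe), and 0 otherwise, also without each library in turn; the cause was not tested. Elsewhere the replicate block moved no member's call; 6 of 22 libraries correlated best with a library of their own number. With a homeostatic microglia score as a covariate, which follows LPS, the averaged LPS differences were -0.03 for Apoe, -0.17 for Gpnmb and -0.13 for Axl, Gpnmb was at -0.09 in control and -0.33 in exposed vehicle mice, and Lpl at 0.00 in exposed CBD mice. Apoc1 minus Apoe went from 0.02 to -0.05 without CtrlVehLPS replicate 1. The 11 related genes named for averaged LPS lost their call with that covariate, which 3 of them enter, at differences still of 0.10 (B2m) to 0.44 (Itgb5), among them Mertk at 0.40 and Csf1r at 0.40. Of those named for CBD with LPS all except Angptl4 lost it, at -0.61 for Olfml3, -0.31 for Tmem119, -0.27 for Ctss, -0.26 for B2m and -0.23 for Fcrls. All-gene counts of calls moved with the setting: from 99 (LPS in controls) to between 0 and 357, from 188 (exposed vehicle) to 7 and 359, from 1 (exposed CBD) to 0 and 64, from 705 (averaged) to 4 and 1062, from 0 (exposure without LPS) to 36, from 1 (exposure with LPS) to 0 and 118, from 48 (CBD with LPS) to 22 and 138, from 0 (exposure by LPS) to 82 and from 9 (CBD by LPS) to 1 and 37. The highest came with no filter and, for LPS comparisons, the lowest mostly with that covariate. Leaving out 1 library took the count to as low as 20 for LPS in controls (without CtrlVeh replicate 2), 125 in exposed vehicle mice (without GWVeh replicate 3 or 4), 449 for averaged LPS (without CtrlVeh replicate 2) and 22 for CBD with LPS (without GWCBD30LPS replicate 4), and for CBD by LPS to between 2 (without GWCBD30 replicate 1) and 17 (without GWVehLPS replicate 2). For CBD without LPS the count was 0 in all settings, with 1288 genes at an unadjusted p under 0.05 by edgeR. A fit to the contrast's groups alone is the same as the full fit for averaged LPS. Cst7, Itgax and Clec7a had few counts and a wide spread between mice; which limits them was not tested.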
